A study of Mus musculus with 191 samples.

Results

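Diazinon and tris(2,3-dibromopropyl)phosphate are phosphorus esters that reached the lung of these mice through the diet, the first as an insecticide and the second as a brominated flame retardant. They are 2 of the 26 chemicals of the study, and the members described here are the 8 arrays, of 191, whose labels name either compound, 4 arrays for each. The samples were whole lungs of female B6C3F1 mice, a hybrid strain, aged 18 weeks at collection after 13 weeks of exposure that began at 5 weeks of age. Each array came from a separate animal by its labels, and RNA was measured on an Affymetrix mouse whole-genome array.

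Diazinon (DIAZ) was given at 200 ppm in rodent chow on 7 days a week, and its controls (FCO2) ate the same chow at 0 ppm. Tris(2,3-dibromopropyl)phosphate (TDPP) was given at 1000 ppm by the same schedule, with its own chow controls (FCO1). Each group held 4 arrays. DIAZ and FCO2 carry the array batch label RSTLRI601_1, and TDPP and FCO1 carry RT_HON07_MusLung. Each compound was therefore set against the controls of its own batch, and the 2 differences were then compared. The doses differ and each compound lies in its own batch, so compound, dose and batch cannot be told apart in that last comparison. Each compound was given at a single dose and a single time, so neither a dose response nor a time course can be read. The samples are whole organs, so fewer cells of a type and less RNA per cell cannot be told apart.

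Diazinon is a phosphorothioate: its phosphorus bears a sulfur by a double bond, ethoxy groups and a pyrimidinyl leaving group. Cytochrome P450 enzymes replace the sulfur by oxygen, and the resulting oxon phosphorylates the active serine of acetylcholinesterase, butyrylcholinesterase and carboxylesterases, while paraoxonase hydrolyses it. TDPP is a phosphate triester of identical 2,3-dibromopropyl groups. It has no such leaving group, and its bromopropyl arms are oxidised by P450 to reactive, mutagenic products that glutathione S-transferases conjugate. The genes looked at first were therefore the esterases, the cholinergic genes, the paraoxonases, the P450s and the glutathione genes, followed by p53 targets, cell cycle genes, stress genes and markers of the cells of the lung.

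The deposited values are taken as log2 intensities; every difference below is exposed minus control on that scale, as mean difference ± SE from limma, with single values given in the order of replicates 1 to 4. A gene was called where its p-value, adjusted by Benjamini-Hochberg over all 13524 genes tested, was below 0.05. The spread of values within an array (its SD over all probe sets) was 1.30 ± 0.03 (SD, n = 4) in DIAZ and 1.23 ± 0.02 in FCO2, and no DIAZ array overlapped a FCO2 array (exact two-sided permutation p = 0.0286, the smallest that 4 against 4 allows). It was 1.21 ± 0.05 in TDPP and 1.24 ± 0.05 in FCO1 (exact two-sided permutation p = 0.429). A wider spread places genes of high level higher and genes of low level lower, so values after quantile normalization, which gives all arrays 1 distribution, stand beside the results it moves. RNA integrity numbers were labelled for none of the DIAZ arrays, 2 FCO2 arrays (7.8 and 8.1), 2 TDPP arrays (9.1 and 9.2) and 3 FCO1 arrays (8.7 to 9.1). Integrity can thus not be compared for diazinon, and for TDPP the few labelled values lie at or above those of its controls. The beta-actin 3' minus 5' signal, a measure of RNA breakdown, differed by -0.07 between DIAZ and FCO2 (exact permutation p = 0.343) and by -0.13 between TDPP and FCO1 (exact permutation p = 0.171). The lung markers Sftpc (surfactant protein C of alveolar type 2 cells), Ager (alveolar type 1 cells) and Scgb1a1 (club cells) lay between 6.40 and 7.22 on all 16 arrays.

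After diazinon no gene was called, with a smallest adjusted p of 0.114. Leaving out FCO2 replicate 2, FCO2 replicate 3 or DIAZ replicate 1 gave 1 called gene each, and leaving out DIAZ replicate 3 gave 2. By unadjusted p below 0.05 there were 1436 genes higher (10.6% of those tested) and 88 lower (0.651%), together 1524 (11.3%). Fitted on the arrays of the contrast alone, 0 genes were called and 2749 (20.3%) had an unadjusted limma p below 0.05. The median difference of all genes was 0.06, with 69.3% of genes above 0 and 30.7% below. In 1337 genes (9.89%) all 4 DIAZ arrays lay above all 4 FCO2 arrays, and in 151 (1.12%) all lay below. After quantile normalization these counts became 369 (2.76%) and 273 (2.04%). The median gene had a 95% interval of ± 0.20, which is not adjusted over all genes. A call needed a difference larger than the interval of its gene. Differences of 0.40 in Hps1 and 0.29 in Lig1 were not called.

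After TDPP 1 gene was called, Psg23, which is 0.00739% of those tested. With replicate 2 of TDPP left out the count was 2, with replicate 2 of FCO1 left out it was 11, and leaving out any other array of these groups gave 0. By unadjusted p below 0.05 there were 141 genes higher (1.04%) and 387 lower (2.86%), with a median difference of -0.03 and 64.2% of genes below 0. All 4 TDPP arrays lay above all 4 FCO1 arrays in 49 genes (0.362%) and below in 108 (0.799%), together 157 genes (1.16%).

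Acetylcholinesterase (Ache), the target that gives organophosphorus insecticides their toxicity, was under the filter on low values, with values from -0.90 to -0.62 on all 16 arrays and differences of -0.01 after either compound. Butyrylcholinesterase (Bche), which binds oxons in plasma and tissue, was at -0.48, -0.50, -0.36 and -0.43 after diazinon and at -0.21, -0.31, -0.35 and -0.41 in FCO2. The DIAZ and FCO2 ranges overlapped, and the difference of -0.12 ± 0.10 was not called. After TDPP the Bche difference was 0.04 ± 0.10. Set against each other, the 2 contrasts differed by -0.16, with a 95% interval from -0.44 to 0.13. Neuropathy target esterase (Pnpla6), the enzyme whose inhibition by some organophosphates precedes delayed neuropathy, differed by 0.12 ± 0.07 after diazinon and by -0.10 ± 0.07 after TDPP. For Pnpla6 the contrasts differed by 0.22 (95% interval 0.01 to 0.42, adjusted p = 0.302).

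Carboxylesterases hydrolyse ester drugs and are bound by oxons. Ces1f was at 0.60, 0.79, 0.64 and 0.78 after TDPP and at 0.17, 0.48, 0.26 and -0.07 in FCO1. All 4 TDPP arrays were above all 4 controls, and the difference of 0.49 ± 0.16 was not called over all genes. The related Ces1g was at -0.23, 0.04, -0.04 and -0.24 against -0.51, -0.39, -0.33 and -0.84, again without overlap (0.40 ± 0.17, not called). After diazinon the differences were 0.18 ± 0.16 for Ces1f and 0.17 ± 0.17 for Ces1g, with overlapping arrays. Ces1d, the main carboxylesterase of mouse lung, differed by 0.14 ± 0.12 after diazinon and 0.01 ± 0.12 after TDPP. Of the 33 serine hydrolases and esterases tested, none was called after either compound. After diazinon 27 of them were higher, with a median of 0.10 against 0.06 for all genes, and 5 of 33 had arrays all above control, against 9.89% of all genes (Lypla2, Abhd2, Lipa, Apeh and Ces1d). After quantile normalization Abhd2, Lipa and Ces1d overlapped their controls. After TDPP 13 were higher, with a median of -0.02 against -0.03, and 3 of 33 had arrays all above control, against 0.362% of all genes (Ces1f, Ces1g and Ces1e). With quantile normalization 3 were apart, Ces1f and Ces1g among them, against 0.433% of all genes apart above and 0.642% apart below. Lypla2, a thioesterase that removes palmitate from proteins, was at 2.38, 2.52, 2.56 and 2.46 after diazinon and at 2.28, 2.07, 1.89 and 2.13 in FCO2. Its difference was 0.38 ± 0.11 (adjusted p = 0.335) and 0.26 after quantile normalization; after TDPP it was -0.19 ± 0.11.

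The cholinergic genes, which make, sense and end the acetylcholine signal, were mostly weak in whole lung: 18 of the 30 on the array passed the filter. After diazinon 13 were higher with a median of 0.03, and after TDPP 7 were higher with a median of -0.02; none was called. The muscarinic receptor Chrm3, which contracts airway smooth muscle, lay between -1.09 and -0.86 on all arrays and was not tested. In 2 of the 18 all arrays were above control after diazinon, a share near the 9.89% of all genes: Slc44a2, a choline transporter (0.33), and Ly6e, a relative of nicotinic receptor modulators (0.29). After quantile normalization 16 members were tested and 0 were apart.

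The paraoxonases, lactonases of which Pon1 hydrolyses the oxon of diazinon, all passed the filter on low values. Pon1 was at 3.63, 3.49, 3.80 and 3.63 after diazinon and at 3.88, 3.90, 3.54 and 3.60 in FCO2, with overlapping arrays and a difference of -0.09 ± 0.21. For malathion (MALA, 14800 ppm), an insecticide that is also activated to an oxon and that shares the FCO2 arrays, the Pon1 difference was -1.08. After TDPP Pon1 was at 3.50, 4.34, 3.15 and 4.15 and at 3.56, 3.43, 3.84 and 3.56 in FCO1 (0.19 ± 0.21). The 4 TDPP arrays spread more widely than any of the other 3 groups. Between the contrasts Pon1 differed by -0.28 (95% interval -0.87 to 0.30), which is too wide to show whether the compounds differ. Pon2 differed by 0.05 ± 0.15 after diazinon and -0.07 ± 0.15 after TDPP, and Pon3 by 0.11 ± 0.14 and 0.10 ± 0.14. None of the 12 paraoxonases and other detoxifying enzymes in their list was called. Of these, 11 were higher after diazinon and 8 after TDPP, with medians of 0.14 and 0.07. The diazinon median became 0.00 after quantile normalization, and that of TDPP became 0.11; leaving out single arrays took the TDPP median from -0.00 (without FCO1 replicate 4) to 0.13 (without TDPP replicate 1), and the diazinon median to 0.09 without DIAZ replicate 3.

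**Figure D1:**
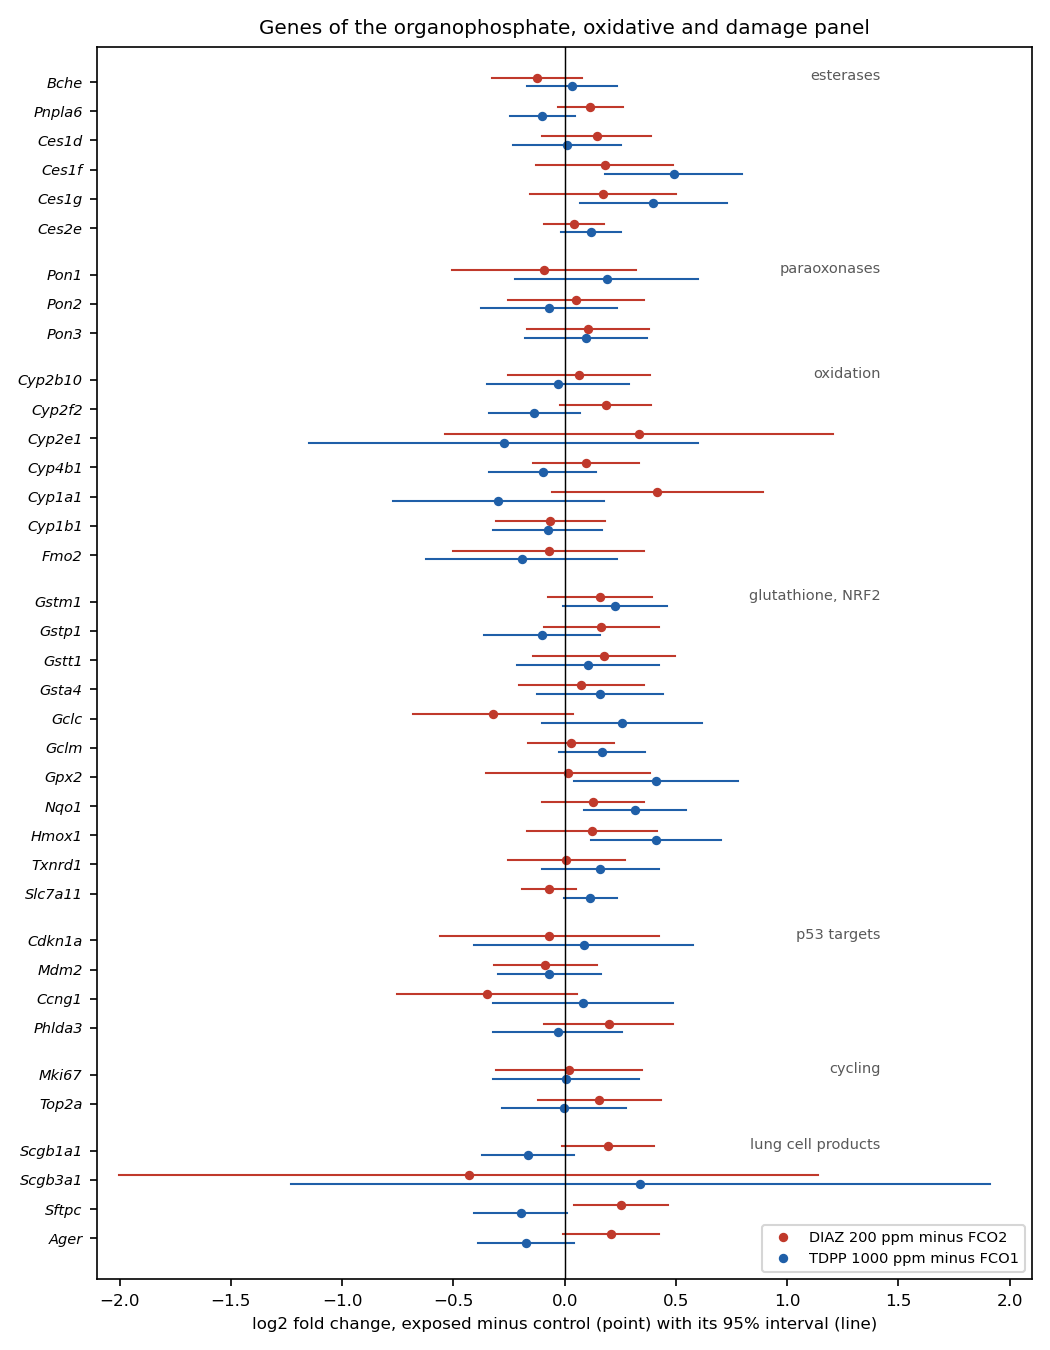
Differences from control (log2 scale, horizontal axis) with 95% intervals for the 37 tested genes of the compounds' targets, detoxification and response, grouped by role, after diazinon and after TDPP. No interval belongs to a called gene, and the intervals of the 2 compounds overlap for most genes.

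Among the P450s that could activate either compound in the lung, Cyp2f2, the abundant P450 of club cells, was at 6.58, 6.49, 6.61 and 6.62 after diazinon and at 6.49, 6.34, 6.39 and 6.33 in FCO2 (0.18 ± 0.10), and differed by -0.14 ± 0.10 after TDPP. Cyp2b10, a target of the receptor CAR that also makes oxons, differed by 0.06 ± 0.16 and -0.03 ± 0.16. Cyp2e1 differed by 0.34 ± 0.44 and -0.27 ± 0.44, with DIAZ arrays from 1.64 to 3.02 and FCO2 arrays from 1.05 to 3.25. Cyp1a1, the main target of the aryl hydrocarbon receptor, was at 0.73, 0.88, 0.83 and 0.19 after diazinon and at -0.04, 0.02, 0.52 and 0.47 in FCO2. Its groups overlapped, and the difference was 0.42 ± 0.24 after diazinon and -0.30 ± 0.24 after TDPP. For scale, 1-amino-2,4-dibromoanthraquinone (ABDQ, 20000 ppm), which shares the FCO1 controls with TDPP, was 4.30 above them in Cyp1a1.

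Of all genes tested, the largest differences after diazinon were in the P450s Cyp3a11 and Cyp2c29, enzymes of high level in liver that oxidise drugs and pesticides. Cyp2c29 was at -0.83, -0.75, 1.06 and -0.43 after diazinon and at 1.92, 1.01, 0.48 and 1.08 in FCO2. Replicates 1, 2 and 4 were below every control, and replicate 3 lay inside the control range. The difference was -1.36 ± 0.35, with an adjusted p of 0.256. Without DIAZ replicate 3 it was -1.79, and was called (adjusted p = 0.024). Cyp3a11 was at -0.99, -0.94, 1.59 and -0.51 after diazinon and at 1.94, 1.07, 0.35 and 1.32 in FCO2, with a difference of -1.38 ± 0.46 (adjusted p = 0.335) and the same replicate inside the control range. After TDPP the differences were 0.05 ± 0.35 for Cyp2c29 and -0.04 ± 0.46 for Cyp3a11, and no TDPP or FCO1 array was above 0.21 in either gene.

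The glutathione S-transferase Gstm3, one of the enzymes that conjugate electrophiles, was at 0.34, 0.45, 0.71 and 0.41 after diazinon and at 1.71, 0.67, 0.59 and 0.88 in FCO2. All DIAZ arrays but replicate 3 were below every control. The difference of -0.49 ± 0.11 had an adjusted p of 0.114, the smallest after diazinon. After TDPP Gstm3 was at 0.85, 0.79, 0.83 and 0.71 against 0.55, 0.72, 0.54 and 0.33, a difference of 0.26 ± 0.11 that was not called. The difference between the contrasts, -0.75 ± 0.15, was called (adjusted p = 0.0107). The probe set is of a kind that can match more than 1 transcript of its family. With FCO2 replicate 1 and DIAZ replicate 3 both left out, the diazinon difference was -0.32 (adjusted p = 0.424). It was called without FCO2 replicate 2, FCO2 replicate 3 or DIAZ replicate 3 (adjusted p = 0.0205, 0.00576 and 0.024). Leaving out FCO2 replicate 1 alone weakened the diazinon difference to -0.24. Over all single arrays left out, the adjusted p from limma reached 0.489. Against all control sets of the batch, whatever their vehicle, the diazinon difference was -0.11 in Gstm3 and -0.43 in Cyp2c29. FCO2 had the highest medians of these sets in both genes and in Cyp3a11. The Cyp2c29 median was 1.05 in FCO2, -0.45, 0.03 and -0.12 in the others (CCO2, CCO3 and WCO1) and -0.59 in DIAZ. For Cyp3a11 these were 1.19, then -0.37, -0.16 and -0.27, and -0.73. For Gstm3 they were 0.78, then 0.39, 0.60 and 0.48, and 0.43. The part of the control set in the diazinon differences was not tested.

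Liver transcripts differed between the same arrays. A list of transcripts of high level in liver, chosen after values had been seen, had 15 genes on the array. Their mean level was 0.26, 0.29, 2.59 and 0.84 in DIAZ and 1.61, 0.76, 0.67 and 0.90 in FCO2. Not all of them were low without Alb: Rbp4 lay between 1.80 and 2.07 on the TDPP and FCO1 arrays. DIAZ replicate 3 was the highest of the 8 arrays in all 15 genes, and DIAZ replicates 1 and 2 were the lowest in 13. Albumin (Alb), the most abundant secreted liver protein, was at 2.06, 2.05, 6.32 and 3.94 in DIAZ and at 4.93, 3.58, 2.74 and 3.91 in FCO2. The mean level was -0.09, 0.06, -0.07 and -0.20 in TDPP and -0.13, -0.13, -0.22 and 0.30 in FCO1, and 10 of the 15 genes were higher on every DIAZ and FCO2 array than on any TDPP or FCO1 array. DIAZ replicates 1 and 2 had the lowest Alb and also the lowest Cyp2c29 of these 8 arrays. DIAZ replicate 3 had the highest Alb of them and the highest Cyp2c29 of the DIAZ arrays. DIAZ replicate 4 and FCO2 replicate 4 had like levels of Alb (3.94 and 3.91) and differed in Cyp2c29 (-0.43 and 1.08). The part of liver transcripts in the Cyp2c29, Cyp3a11 and Gstm3 differences was not tested. The other diets set against FCO2 gave, for Cyp2c29 and Cyp3a11, differences of -1.17 and -1.19 with malathion, -1.08 and -1.04 with 2,2-bis(bromomethyl)-1,3-propanediol (BBMP, 1250 ppm) and -0.31 and -0.16 with 4-nitroanthranilic acid (NAAC, 10000 ppm). All of these share the FCO2 arrays with diazinon. The Gstm3 median was 0.43 with diazinon, 0.51 with BBMP, 0.56 with malathion and 0.71 with NAAC, against 0.78 in FCO2. It was 0.81 with TDPP and 0.78 with ABDQ, against 0.54 in FCO1.

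**Figure D2:**
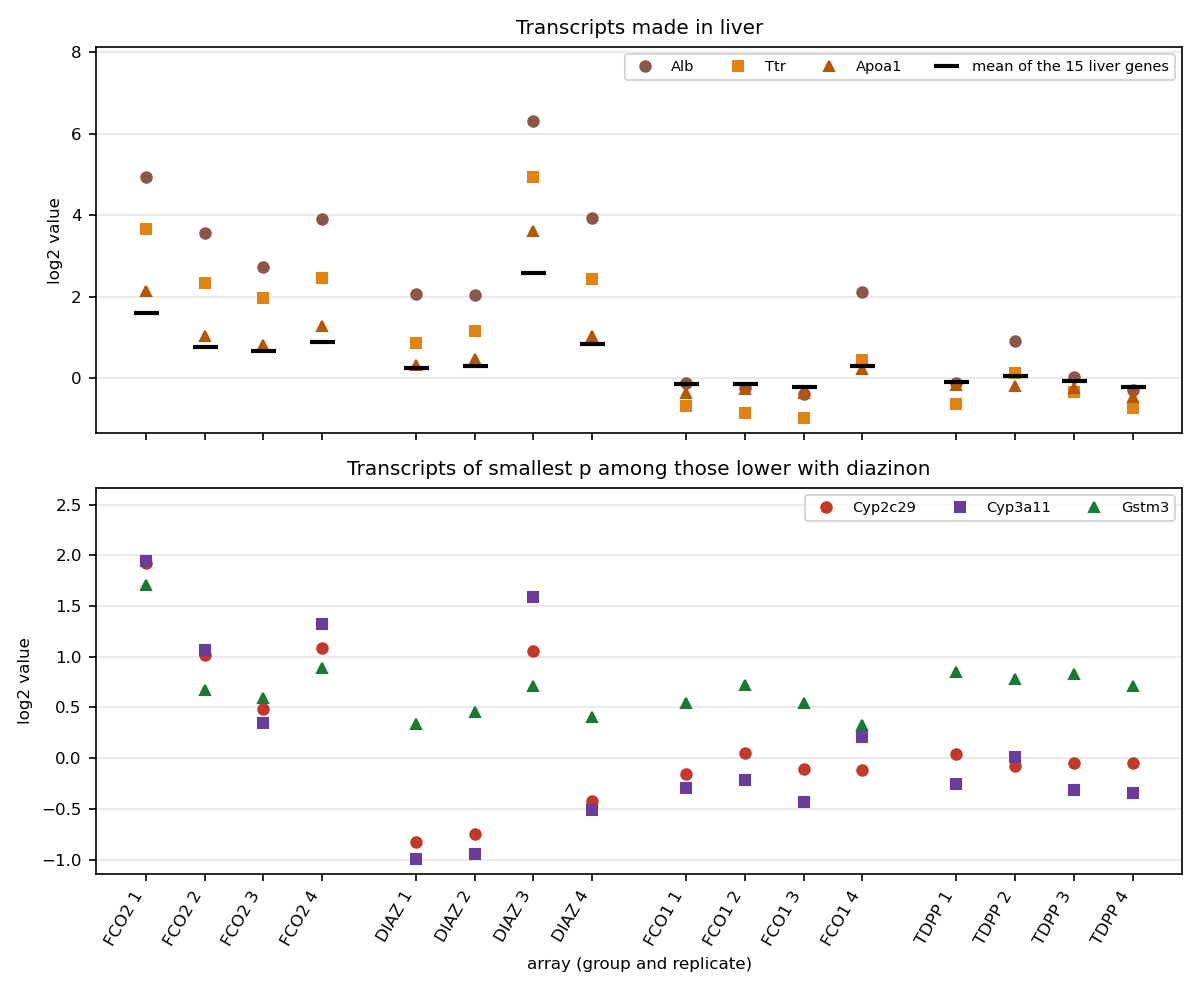
Level on each of the 16 arrays (log2, vertical axis) of Alb, Ttr, Apoa1 and the mean of 15 liver transcripts in the upper panels, and of Cyp2c29, Cyp3a11 and Gstm3 in the lower panels. DIAZ replicate 3 is the highest array for the liver transcripts and the only DIAZ array inside the FCO2 range for Cyp2c29 and Cyp3a11.

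Genes of the antioxidant response, which NRF2 turns on when electrophiles modify its inhibitor KEAP1, were more often higher than lower after TDPP. Of the 36 tested, 30 were higher, with a median of 0.13 against -0.03 for all genes; after quantile normalization 32 were higher, with a median of 0.18. Without FCO1 replicate 4 the median was 0.05, with 27 higher. None was called. In 6 of them all TDPP arrays were above all controls (Nqo1, Hmox1, Gpx2, Gstm1, Osgin1 and Gss), against 0.362% of all genes, and in none were all below. With quantile normalization 4 were apart, against 0.433% of all genes apart above and 0.642% apart below. After diazinon 30 of the 36 were also higher, with a median of 0.11, but after quantile normalization 16 were, with a median of -0.01. Without DIAZ replicate 3 the diazinon median was 0.04.

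Nqo1, a quinone reductase and a standard NRF2 target, was at 0.01, 0.26, 0.14 and -0.04 after TDPP and at -0.19, -0.05, -0.29 and -0.36 in FCO1. The arrays did not overlap as deposited but did after quantile normalization, and the difference was 0.32 ± 0.12. Hmox1, which degrades haem, was at 0.88, 1.30, 1.19 and 0.97 against 0.62, 0.81, 0.68 and 0.58, a difference of 0.41 ± 0.15. Gpx2, a glutathione peroxidase of epithelia, was at 2.08, 2.19, 2.09 and 2.01 against 1.64, 1.86, 1.85 and 1.38, a difference of 0.41 ± 0.19. These groups were separate as well. Gstm1, another conjugating transferase, was at 4.75, 4.94, 4.89 and 4.79 against 4.72, 4.70, 4.58 and 4.47, a difference of 0.23 ± 0.12. In all 4 genes the highest controls came close to the lowest TDPP arrays, and none passed the adjusted threshold. After diazinon the same genes differed by 0.13 ± 0.12 (Nqo1), 0.12 ± 0.15 (Hmox1), 0.02 ± 0.19 (Gpx2) and 0.16 ± 0.12 (Gstm1). The intervals of the difference between the contrasts included 0 for each of the 4, for example -0.70 to 0.12 for Hmox1. ABDQ, against the same FCO1 arrays, gave 1.10 for Nqo1 and 0.68 for Hmox1.

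Gclc, the subunit that makes the first product of glutathione synthesis, differed by -0.32 ± 0.18 after diazinon and by 0.26 ± 0.18 after TDPP, neither called. Between the contrasts Gclc differed by -0.58 (95% interval -1.09 to -0.07, adjusted p = 0.262). The metallothioneins Mt1 and Mt2, which bind metals and answer to oxidants and glucocorticoids, differed by 0.41 ± 0.20 and 0.47 ± 0.26 after TDPP and by -0.25 ± 0.20 and -0.49 ± 0.26 after diazinon, none called. Mt1 was at 2.91, 3.10, 2.74 and 2.71 after TDPP and at 2.35, 2.53, 2.45 and 2.47 in FCO1, without overlap.

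Targets of p53, the factor that answers DNA damage, were not called after either compound. Cdkn1a, which halts the cell cycle, differed by -0.07 ± 0.25 after diazinon and 0.09 ± 0.25 after TDPP. Mdm2, the ligase that limits p53, differed by -0.09 ± 0.12 and -0.07 ± 0.12. Ccng1 was at 1.17, 0.64, 0.98 and 1.17 after diazinon and at 1.23, 1.64, 1.23 and 1.26 in FCO2, without overlap but with a difference of -0.35 ± 0.20 that was not called. Over the 30 targets and damage response genes tested, the medians were 0.07 after diazinon and -0.03 after TDPP. These are near the medians of all genes, 0.06 and -0.03. Without FCO1 replicate 4 the TDPP median was 0.06.

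Cell cycle genes were all on the higher side after diazinon: 26 of 26 tested were above 0, against 69.3% of all genes, with a median of 0.22. None was called; 14 had an unadjusted p below 0.05, against 11.3% of all genes. After quantile normalization 24 were higher with a median of 0.15, and without DIAZ replicate 4 23 were higher with a median of 0.16. Markers of erythroid cells, of which 5 were tested, were higher in 4 with a median of 0.38 (0.22 without DIAZ replicate 3, and -0.02 over the 9 on the array when no filter on low values was set). Their mean level was 1.41, 1.44, 2.02 and 1.94 in DIAZ and 1.44, 1.37, 1.45 and 1.31 in FCO2, and the mean level of the cell cycle genes was 0.36, 0.48, 0.58 and 0.71 in DIAZ and 0.39, 0.20, 0.31 and 0.38 in FCO2. Replicates 3 and 4 of DIAZ were the highest of these 8 arrays for both lists, and the part of erythroid cells in the cell cycle values was not tested. Mcm5, a subunit of the helicase that opens replication origins, was at 0.73, 1.06, 1.52 and 1.33 after diazinon and at 0.62, 0.43, 0.82 and 0.73 in FCO2. The arrays overlapped in replicate 1 alone, and the difference was 0.51 ± 0.14 (adjusted p = 0.335). Another subunit, Mcm2, was 0.30 ± 0.09 higher (adjusted p = 0.335). The division markers Mki67 and Top2a differed by 0.02 ± 0.17 and 0.16 ± 0.14. After TDPP 10 of the 26 were higher with a median of -0.01, and Mcm5 differed by 0.00 ± 0.14. Higher Mcm5 than in FCO2 was not particular to diazinon. The Mcm5 median was 1.20 with diazinon, 1.13 with BBMP, 0.97 with NAAC and 0.96 with malathion, against 0.68 in FCO2. With ABDQ it was 1.10, against 0.65 in FCO1.

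Lig1, the ligase that joins the fragments of the lagging strand, was at 0.32, 0.54, 0.60 and 0.57 after diazinon and at 0.27, 0.09, 0.26 and 0.24 in FCO2. All 4 DIAZ arrays were above all controls, and the difference was 0.29 ± 0.06 (adjusted p = 0.114); after quantile normalization it was 0.24 and the arrays overlapped. After TDPP Lig1 was at 0.17, -0.05, 0.41 and 0.08 against 0.28, 0.35, 0.22 and 0.30, a difference of -0.14 ± 0.06. The difference between the contrasts, 0.43 ± 0.09, was called (adjusted p = 0.0124). Parp1, which senses DNA breaks, was at 1.60, 1.79, 1.87 and 1.80 after diazinon and at 1.51, 1.46, 1.36 and 1.44 in FCO2, without overlap. It differed by 0.32 ± 0.09 after diazinon (adjusted p = 0.335) and by -0.16 ± 0.09 after TDPP. The difference between the contrasts of 0.48 ± 0.12 was called (adjusted p = 0.0496). Other probe sets of Parp1 went the same ways with smaller differences, 0.18, 0.16 and 0.11 after diazinon and -0.03, -0.04 and -0.09 after TDPP. The last of these was above the median of all values on 2 of the 16 arrays. After quantile normalization the difference between the contrasts was 0.34 for Lig1 (adjusted p = 0.162) and 0.34 for Parp1 (adjusted p = 0.0976), so both lost the call.

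Among genes of protein folding stress none was called in either contrast. Of 28 tested, 21 were higher after TDPP with a median of 0.14, and 13 after diazinon with a median of -0.02. The diazinon median was above 0 without FCO2 replicate 1 (0.02), FCO2 replicate 3 (0.02) or DIAZ replicate 4 (0.05), and the TDPP median was 0.07 without TDPP replicate 2 and 0.09 without FCO1 replicate 1. Hsph1, a chaperone of the HSP110 family, was at 3.12, 4.45, 3.01 and 3.77 after TDPP and at 1.98, 3.18, 3.06 and 3.60 in FCO1 (0.63 ± 0.33). It was at 3.22, 2.44, 2.98 and 1.72 after diazinon and at 3.60, 3.10, 3.48 and 3.06 in FCO2 (-0.72 ± 0.33). The arrays overlapped in both contrasts. The inducible chaperone Hspa1b, named after its values were seen, had the largest TDPP difference of all genes tested, 1.13, with means of 3.58 ± 0.96 (SD, n = 4) after TDPP and 2.45 ± 1.49 in FCO1, overlapping and not called. Sdf2l1, which works with chaperones of the endoplasmic reticulum, was at 1.07, 1.19, 1.17 and 1.20 after TDPP and at 0.72, 0.54, 0.77 and 0.90 in FCO1, without overlap (0.43 ± 0.16).

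Psg23, a gene of the pregnancy-specific glycoproteins that the placenta secretes, was the gene called after TDPP. It was at 0.07, -0.05, 0.03 and -0.03 after TDPP and at -0.42, -0.07, -0.46 and -0.59 in FCO1, and at -0.47, -0.52, -0.50 and -0.69 after diazinon and -0.42, -0.46, -0.36 and -0.35 in FCO2. The TDPP arrays were above every FCO1 array, narrowly so over FCO1 replicate 2, and the DIAZ arrays were narrowly below every FCO2 array as deposited but overlapped them after quantile normalization. The differences were 0.39 ± 0.08 after TDPP (adjusted p = 0.0247, 1.31-fold on a log2 scale) and -0.15 ± 0.08 after diazinon. The difference between the contrasts, -0.54 ± 0.11, was called (adjusted p = 0.0107). ABDQ differed from the same FCO1 arrays by 0.35. Fitted on the arrays of its batch alone, the TDPP difference had an adjusted p of 0.491, and leaving out any of 6 arrays (all but replicate 2 of either group) ended the call, with differences from 0.32 to 0.40. The gene is read by 1 probe set, which was above the median of all values (-0.386) on 7 of the 16 arrays, so its level is low. That probe set is of the type whose probes can match related sequences. The Psg family has near-identical members, so the level may belong to more than Psg23.

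**Figure D3:**
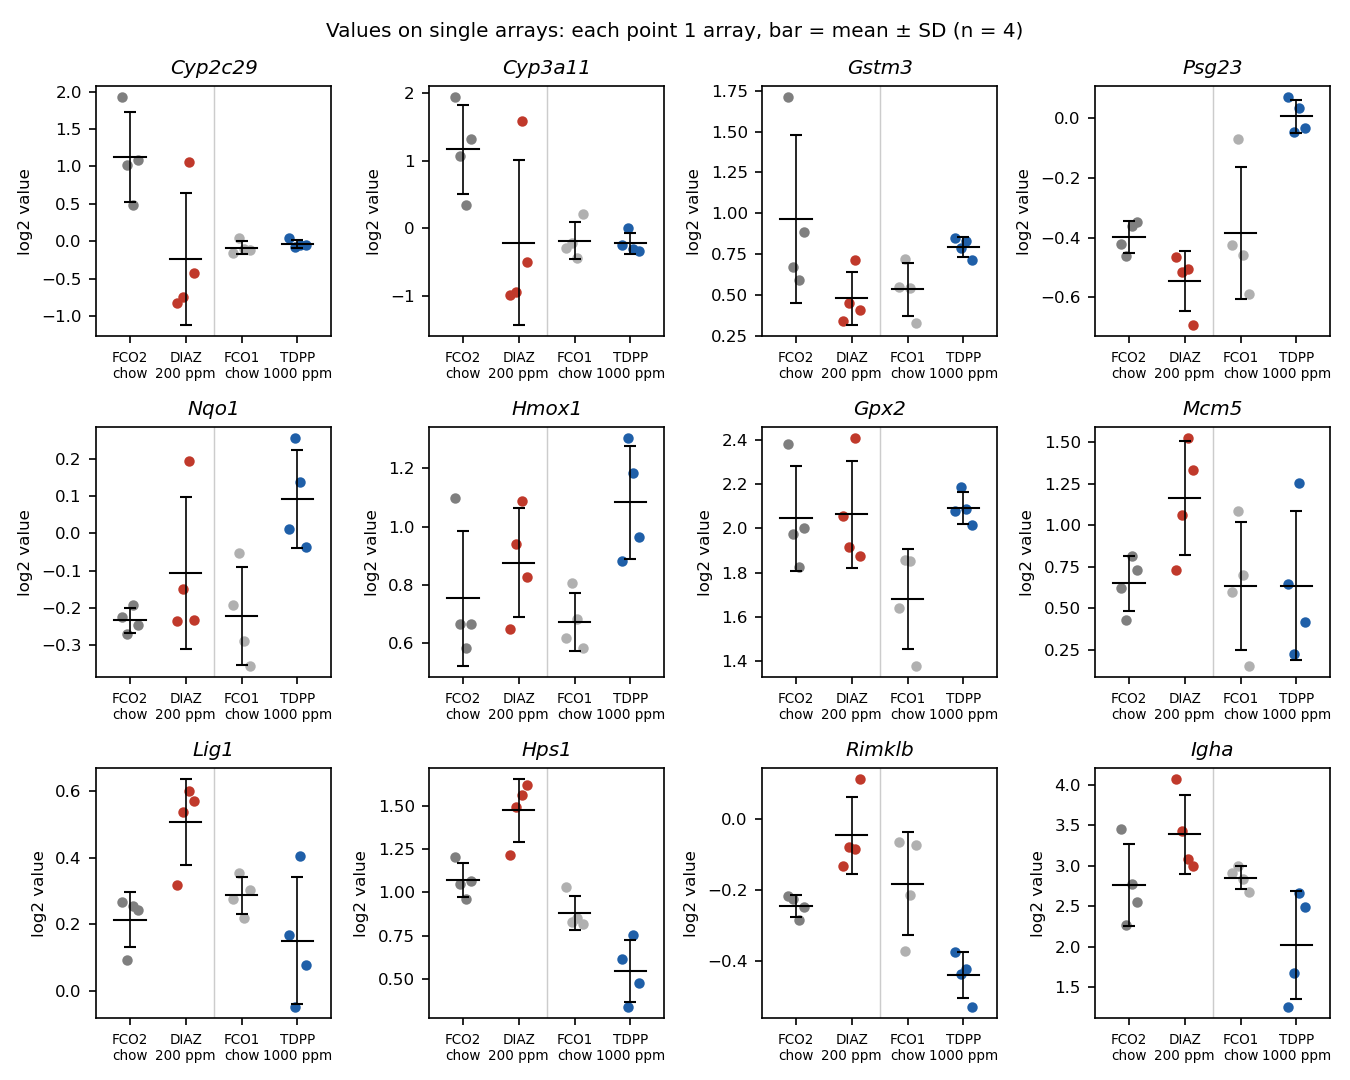
Level on each array (log2, vertical axis) of 12 genes in DIAZ, FCO2, TDPP and FCO1; points are arrays and bars give the mean ± SD (n = 4). The TDPP arrays lie above all FCO1 arrays for Psg23, Nqo1, Hmox1 and Gpx2, and the DIAZ arrays lie above all FCO2 arrays for Lig1 and Hps1, on the values as deposited.

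The difference between the contrasts was called for 32 genes: 30 in which diazinon minus control exceeded TDPP minus control (0.222% of those tested) and 2 in the other direction (0.0148%), which are Gstm3 and Psg23. By unadjusted p below 0.05 it was higher in 13.8% of genes and lower in 1.66%, and it was above 0 in 68.9% and below 0 in 31.1%. In each of the 30 the diazinon difference was above 0 and the TDPP difference below 0, so that both contrasts add to it. The sizes of the 30 ran from 0.29 to 0.74. Among the 10 largest were Arrdc1, an arrestin-domain protein of vesicle budding (0.56), and Parvg, a focal adhesion protein of blood cells (0.48); after quantile normalization neither was called (adjusted p = 0.182 and 0.0976). The median difference between the contrasts over all genes was 0.09, in the same direction as the 30. After quantile normalization 7 genes were called, 5 of them among the 32. The count rested on single arrays: it was 0 without DIAZ replicate 4 (1910 genes by unadjusted p in limma) and 1 without FCO1 replicate 4. It was 5 to 9 without DIAZ replicate 2, FCO2 replicate 2, 3 or 4, TDPP replicate 2 or 4, or FCO1 replicate 1, and 19 without DIAZ replicate 3. It was 50 without DIAZ replicate 1 or FCO2 replicate 1, 111 without FCO1 replicate 2 and 157 without TDPP replicate 3.

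Hps1, a subunit of a complex for lysosome-related organelles such as the lamellar bodies of alveolar type 2 cells, gave the largest of these. It was at 1.21, 1.49, 1.56 and 1.62 after diazinon and at 1.20, 1.05, 0.96 and 1.07 in FCO2, and at 0.61, 0.34, 0.75 and 0.48 after TDPP and 1.03, 0.83, 0.85 and 0.81 in FCO1. Both pairs of groups were separate, in opposite directions (0.40 ± 0.10 and -0.33 ± 0.10), and the difference was 0.74 ± 0.14 (adjusted p = 0.00711; after quantile normalization 0.61, adjusted p = 0.0264). After quantile normalization the arrays overlapped in both pairs. Its 4 probe sets disagree: the other 3 gave diazinon differences of 0.15, -0.07 and -0.08 and TDPP differences of -0.12, 0.22 and 0.03. Other diets set against the same controls also lay apart from them in Hps1. Its median was 1.41 with BBMP, 1.42 with NAAC and 1.21 with malathion, against 1.06 in FCO2. With ABDQ it was 0.65, against 0.84 in FCO1. Rimklb, which makes N-acetylaspartylglutamate in nerve tissue, was at -0.13, -0.08, -0.09 and 0.11 after diazinon and at -0.22, -0.23, -0.29 and -0.25 in FCO2. It was at -0.37, -0.44, -0.42 and -0.53 after TDPP and at -0.07, -0.37, -0.22 and -0.08 in FCO1. Its differences were 0.20 ± 0.06 and -0.26 ± 0.06, and the difference between them was 0.46 ± 0.09 (adjusted p = 0.00711). The Rimklb probe set used was above the median of all values on 13 of the 16 arrays. Its other 3 probe sets were dim, above that median on 0 arrays, and went the other way. They gave diazinon differences of -0.06, -0.12 and -0.17 and TDPP differences of 0.03, 0.01 and 0.14. The Rimklb median was -0.42 with ABDQ and -0.43 with TDPP, against -0.15 in FCO1. With BBMP, NAAC and malathion it was -0.20, -0.21 and -0.25, against -0.24 in FCO2.

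Of the 42 genes of the compounds' targets, detoxification and response that were listed, 37 were tested, and none was called in either contrast or in their difference. The 8 with an unadjusted p below 0.05 for the difference (against 15.5% of all genes) were Pnpla6, Cyp2f2, Cyp1a1, Gclc, Slc7a11, Scgb1a1, Sftpc and Ager, with a smallest adjusted p of 0.141. The 95% interval of the difference reached from ± 0.17 to ± 2.22 over the 37, with a median of ± 0.39. These intervals are not adjusted over all genes, so a call needed a difference between the contrasts larger than the interval of its gene.

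Among markers of cell types, those of the alveolar epithelium showed the most arrays apart after diazinon. Of 16 type 2 cell markers 15 were higher, with a median of 0.24, and in 11 all DIAZ arrays were above all controls, against 9.89% of all genes. Sftpc was at 7.07, 7.04, 7.07 and 7.22 after diazinon and at 6.86, 6.76, 6.95 and 6.81 in FCO2, a difference of 0.25 ± 0.11 that was not called. After quantile normalization its difference was 0.01, and the list's median was 0.06 with 2 markers apart. The 12 type 1 cell markers had a median of 0.20 with 7 apart, and after quantile normalization 0.03 with 0 apart; Ager went from 0.21 to -0.04. The type 2 markers averaged 4.89 to 5.02 on the DIAZ arrays and 4.65 to 4.74 on the FCO2 arrays. The DIAZ arrays also had the wider spread given above, and its part in these values was not tested. After TDPP the 16 type 2 markers had a median of -0.15, with 15 lower, and -0.05 after quantile normalization; without TDPP replicate 1 it was -0.10.

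Cd74, the chaperone of MHC class II, which type 2 cells, macrophages and B cells share, was at 5.18, 5.27, 5.21 and 5.28 after diazinon and at 4.91, 4.70, 4.75 and 4.86 in FCO2. The arrays did not overlap either as deposited (0.43 ± 0.12, adjusted p = 0.335) or after quantile normalization (0.25). After TDPP it differed by -0.13 ± 0.12. Markers of B and plasma cells were higher after diazinon in 14 of 15, with a median of 0.34, and lower after TDPP in 14 of 15, with a median of -0.19; after quantile normalization the medians were 0.26 and -0.16. Without TDPP replicate 2 the TDPP median was -0.08, without FCO1 replicate 3 it was -0.13, and without FCO1 replicate 4 it was -0.31. None was called. Igha, the heavy chain of immunoglobulin A, was at 4.07, 3.43, 3.08 and 2.99 after diazinon and at 3.46, 2.27, 2.77 and 2.56 in FCO2 (0.63 ± 0.44, overlapping). It was at 1.25, 1.67, 2.66 and 2.49 after TDPP and at 2.90, 3.00, 2.83 and 2.67 in FCO1 (-0.84 ± 0.44). All TDPP arrays were below, narrowly so (2.66 against 2.67), and they overlapped FCO1 after quantile normalization. Ighm, the heavy chain of immunoglobulin M, differed by 1.28 after diazinon and by -0.92 after TDPP, with overlapping arrays in both. Interferon response genes, which include antigen processing, were higher after diazinon in 20 of 22, with a median of 0.18, or 0.10 after quantile normalization and 0.12 without DIAZ replicate 4. Psmb9, an immunoproteasome subunit, was at 1.94, 2.08, 2.49 and 2.33 against 1.74, 1.77, 1.84 and 1.80, without overlap before and after quantile normalization (0.42 ± 0.17, not called).

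Of 19 ciliated cell markers 17 were higher after TDPP, with a median of 0.08, and 14 were lower after diazinon, with a median of -0.08; after quantile normalization the medians were 0.09 and -0.11. Without FCO2 replicate 1 the diazinon median was -0.01, and without FCO2 replicate 3 it was -0.16. Dynlrb2, a dynein light chain of cilia, was at 2.93, 3.26, 2.76 and 3.09 after TDPP and at 2.55, 2.56, 2.74 and 2.52 in FCO1, without overlap (0.42 ± 0.18, not called). The 12 club cell markers had a median of 0.07 after either compound, and after quantile normalization -0.07 after diazinon and 0.14 after TDPP. The 10 goblet cell markers had medians of -0.16 after diazinon and 0.11 after TDPP; the diazinon median turned to 0.05 without FCO2 replicate 1 and to 0.04 without DIAZ replicate 2. The secretory gene Scgb3a1 ran from 1.43 to 6.29 among the DIAZ arrays and from 1.88 to 6.62 in FCO2. Markers of the cardiac muscle around the pulmonary veins were lower in 17 of 20 after either compound, with medians of -0.26 and -0.10, and in none were the groups apart. Both medians rested on single arrays: the diazinon median was 0.10 without FCO2 replicate 1 and -0.02 without DIAZ replicate 4, and the TDPP median was 0.10 without TDPP replicate 4 and 0.01 without FCO1 replicate 4.

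**Figure D4:**
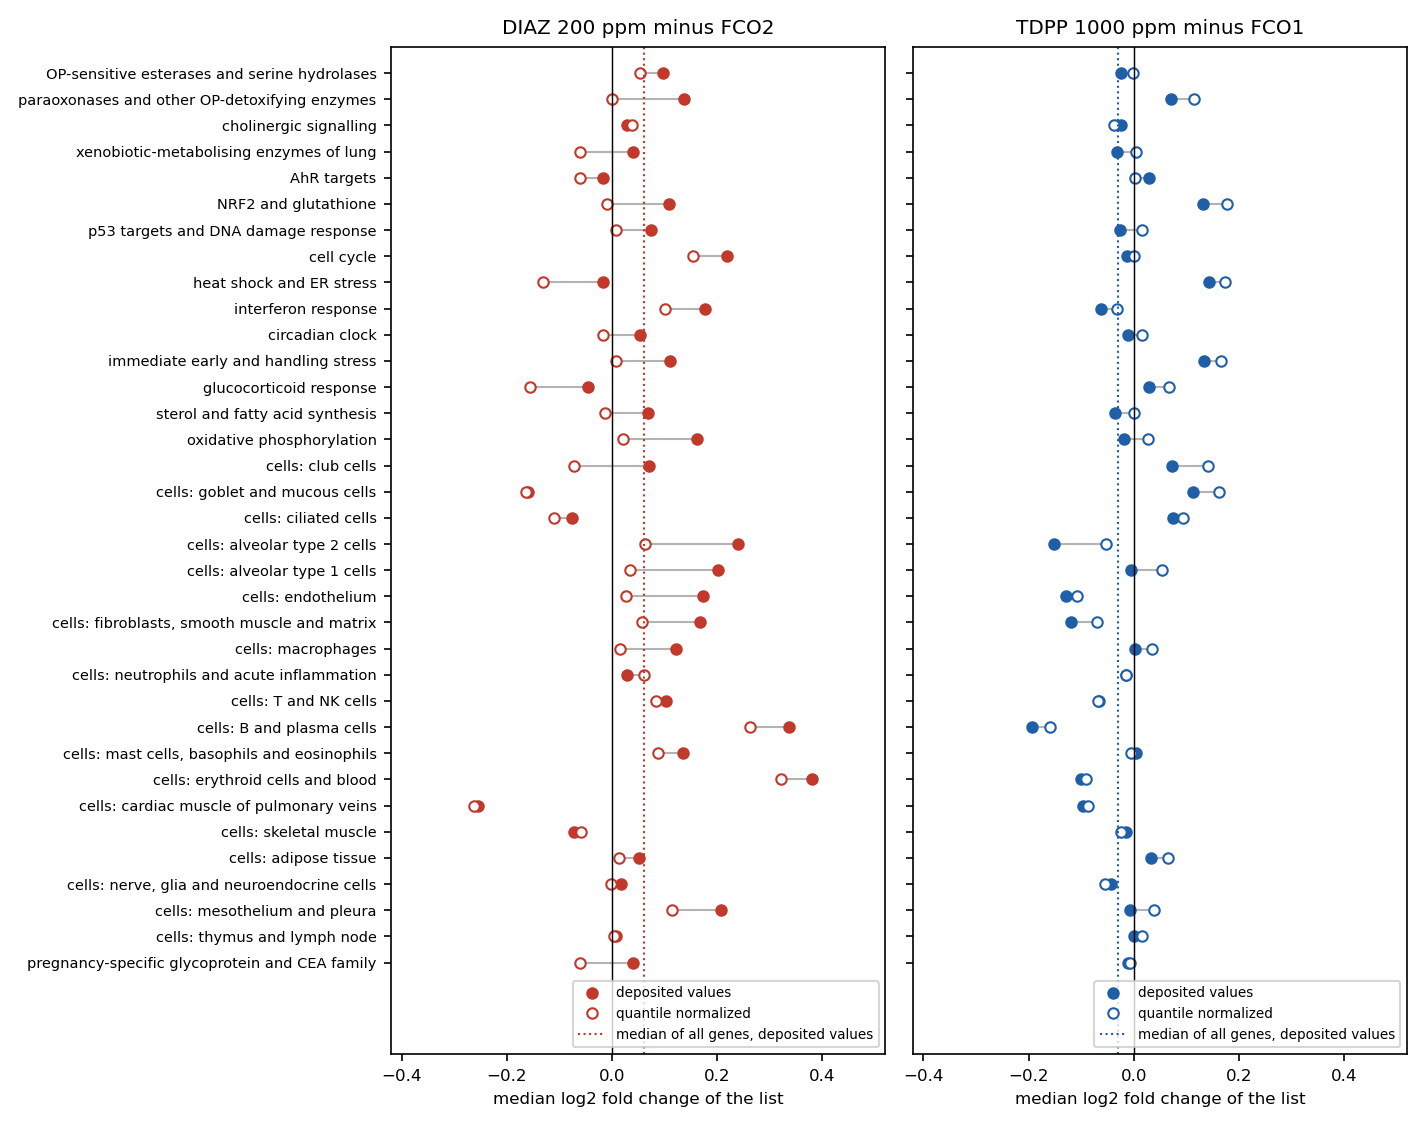
Median difference from control (log2 scale, horizontal axis) of each of 35 gene lists after diazinon and after TDPP, as deposited and after quantile normalization; dotted lines mark the median of all genes tested. Cell cycle and B cell lists stay above the median of all genes after diazinon under both scalings, and the alveolar lists approach 0 after quantile normalization.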

How the data were processed

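Lung RNA of single mice was measured on an Affymetrix mouse array, and the deposited table of the authors holds 1 value per probe set and array. The deposited values are taken as log2 intensities from their range; log base, background correction and normalization are not given in the sources used here. Array means lie near 0 and no counts exist, so the number of arrays limits the precision. Replicate numbers are in accession order and only name arrays; p-values measure the spread between animals of a group.

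Each gene with 1 symbol was read by its probe set of highest mean over all arrays, and genes above the median of all values on at least 3 arrays were kept (13524 of 18194). limma 3.58.1 (R 4.3.3) fitted group means over all 191 arrays, which share 1 estimate of the spread, and p-values were adjusted by Benjamini-Hochberg over all genes kept. The contrasts tested were DIAZ minus FCO2, TDPP minus FCO1, and their difference (1 pair of compounds). Single values were compared by exact two-sided permutation tests. Quantile normalization was done within array batch. The fit was tested on simulated data.

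Named genes were those of the list of 42 targets and response genes, called genes up to 10 a direction with the smallest p-values filling in, and up to 4 genes a list; a few others are said to be chosen later. The compounds and gene lists were chosen with earlier results of these data known, and the liver list after values were seen. Alternatives were quantile normalization, median centring, other filters, probe set rules, arrays in the fit, moderation, array weights, control sets, RNA amount as a covariate and leaving out arrays.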

Additional observations from a re-analysis of the deposited data

Results flagged for a closer look

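In 11 of the 244 groups of 4 arrays checked (61 genes in 4 groups), 1 array stood far from the other 3; chance alone flags about 5% of such groups. Among the DIAZ arrays, replicate 3 was high in Ces1e (0.19 against -0.14 to -0.09) and in Gss (1.29 against 1.00 to 1.02), the replicate that also had the highest liver transcripts. In FCO2, replicate 2 was high in Ccng1 (1.64 against 1.23 to 1.26) and low in Lig1 (0.0932 against 0.24 to 0.27) and Mcm2 (0.0401 against 0.18 to 0.19), and replicate 1 was high in Hmox1 (1.10 against 0.58 to 0.67). Without FCO2 replicate 2 the diazinon difference in Lig1 was 0.25. In TDPP, replicate 1 was low in Hspa1b (2.16 against 3.94 to 4.29). In FCO1, replicate 4 was high in Alb (2.11 against -0.39 to -0.11) and Pnpla6 (1.03 against 0.80 to 0.82) and low in Gss (0.79 against 1.00 to 1.00), and replicate 1 was low in Mki67 (-0.44 against -0.25 to -0.22).

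The diazinon and TDPP differences from control were unlike by the limma test of the difference in 8 named genes. The difference of the contrasts was 0.74 in Hps1, 0.56 in Arrdc1, 0.48 in Parp1, 0.48 in Parvg, 0.46 in Rimklb, 0.43 in Lig1, -0.54 in Psg23 and -0.75 in Gstm3. Compound, dose and array batch cannot be told apart in these values. After quantile normalization the call was lost in Arrdc1, Parp1, Parvg and Lig1 (adjusted p = 0.182, 0.0976, 0.0976 and 0.162).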

How the results depend on the processing

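No paired analysis was possible because the replicate numbers come from accession order and do not pair animals across groups. With 4 arrays a group, the 95% interval of the median gene was ± 0.20 before adjustment over all genes, and a call needed more than such an interval. Diazinon gave 0 called genes as reported, and 1 with no filter on dim genes, 1 with the mean of all probe sets of a gene, 2377 with array weights within the contrast, 309 against all control sets of the batch, 2 with arrays of 15 µl sent to the core only (a choice made after seeing the data) and 0 to 2 when single arrays were left out. TDPP gave 1, and 2 with every probe set tested on its own, 0 with the arrays of the contrast alone (169 by unadjusted p in limma), 0 with those of the batch alone (283), 0 with array weights (2.9% of genes by unadjusted p in limma), 39 against all control sets, 0 without FCO1 replicate 4 and TDPP replicate 2 together (321; chosen after seeing the data) and 0 to 11 when single arrays were left out. The difference of the contrasts gave 32, and 7 after quantile normalization, 19 after median centring, 19 with no filter, 6 with the mean of probe sets, 50 with every probe set, 2 with the 16 arrays alone, 3 with both batches alone, 854 with array weights, 1042 against all control sets and 0 to 157 when single arrays were left out. The median diazinon difference was 0.06 as reported, 0.0108 after quantile normalization and 0.0131 with no filter. The genes with arrays apart after diazinon, 1488 as reported, were 642 after quantile normalization, 2335 with no filter and 1677 to 3227 when single arrays were left out; for TDPP the 157 became 214 to 648. The cause of these changes was not tested. Among the named genes, no diazinon or TDPP difference that was called, as reported or under another setting, changed sign. Signs were not checked in this way for the difference of the contrasts or for other genes. List medians, which carry no call, did: of 35 lists, 10 after diazinon and 20 after TDPP changed sign when some single array was left out, and 7 and 9 did after quantile normalization. Of the other settings of the counts and medians, 82 stayed within the limits set and 60 moved. Among named genes and lists in the diazinon and TDPP contrasts, 8829 settings stayed within the limits, 424 moved, 136 gained the call and 10 lost it. The losses were all of Psg23, the 1 gene called as reported in these contrasts.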
